A study of Mus musculus with 6 samples.

Results

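The inflammasome genes followed here were the sensors Nlrp3, Nlrp12, Nlrc4, Naip5, Aim2 and Mefv, the adaptor Pycard, the caspases Casp1 and Casp4 and the pore-forming gasdermin Gsdmd. They were chosen by name for their place in the pathway, with earlier results of these data known, and they make up 10 of the 38887 genes in the count table. Their expression was measured in bone marrow neutrophils isolated with Ly6G beads, either from naive mice or from mice that had received LL2 cells, a Lewis lung carcinoma line, 1 week or 3 weeks earlier. According to the methods, the LL2 cells carried luciferase and were injected into a vein, so that lesions formed in the lung, and the naive mice received no tumor. Each of the 3 groups had 2 libraries, which the labels number as replicate mice without giving strain, age or sex. P-values set differences against the spread between libraries of a group, estimated from all 6 libraries together with information shared between genes. The paper's figure legend gives 3 samples for each group, which differs from the labels.

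An inflammasome is a protein platform that forms in the cytosol when a sensor meets a microbial product or a sign of damage. Most sensors recruit the adaptor ASC, encoded by Pycard, which in turn gathers and activates caspase-1. Caspase-1 cuts the precursors of interleukin-1β and interleukin-18 and, with the caspase encoded by Casp4 in mice, cuts gasdermin D, whose freed end makes pores in the plasma membrane and can end in lytic death, called pyroptosis. In neutrophils interleukin-1β can leave the cell without that death, and neutrophil proteases can also cut gasdermin D.

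The libraries held between 11994158 and 14127919 expected counts, and levels are given as CPM, counts relative to the library total after TMM scaling between libraries. At this depth 3 counts, taken as the limit of detection, corresponded to between 0.2 and 0.246 CPM. These limits allow for counting error at most, and reads copied by PCR are not independent molecules. The summed level of 12 neutrophil markers was between 288094 and 328809 CPM in naive libraries, 288304 and 306890 CPM at 1 week and 338491 and 352405 CPM at 3 weeks, although Ly6g itself, the gene of the selection marker, had only 6 to 32 counts in a library. The largest part of this sum was S100a8, with means of 177799 CPM in naive, 155450 CPM in one-week and 221543 CPM in three-week libraries. Of the 12 markers, 2 were higher (Cxcr2 and Retnlg) and 3 lower (Camp, Ltf and Ngp) at 3 weeks than in naive mice. All 10 markers of the B lineage were lower at 3 weeks than in naive mice, with summed levels of 49 to 62.2 CPM in naive, 48.3 to 61.9 CPM in one-week and 12.5 to 14.2 CPM in three-week libraries. Of 11 monocyte or macrophage markers, 1 was higher and 2 were lower at 3 weeks against naive mice, and their summed level was 414 to 464 CPM in naive, 359 to 391 CPM in one-week and 344 to 527 CPM in three-week libraries. All 9 markers of early neutrophil precursors changed at 3 weeks against naive mice, 5 of them higher (Mpo, Elane, Prtn3, Ctsg and Ms4a3) and 4 lower (Cebpe, Chil3, Mki67 and Top2a). The summed level of 7 eosinophil, basophil or mast cell markers was 22 to 26.3 CPM in naive, 41.5 to 46.2 CPM in one-week and 17.5 to 22.9 CPM in three-week libraries. Of the 4 tested, 3 were higher at 1 week than in naive mice and 2 lower at 3 weeks. Of 3 tested megakaryocyte or platelet markers 3 were lower at 3 weeks than in naive mice. The 4 listed summed to 95.5 to 102 CPM in naive, 77.4 to 84.8 CPM in one-week and 55.4 to 66.5 CPM in three-week libraries. The T or NK cell markers summed to 13.9 to 14.4 CPM, 16 to 24.6 CPM and 8.61 to 11.4 CPM in the same order, with 1 of 3 tested higher and 1 lower at 3 weeks than in naive mice. The 8 erythroid markers summed to 1179 to 1315 CPM, 1285 to 1489 CPM and 563 to 1319 CPM, with 1 lower. No marker in these lists was at 0 in every library, and the part of these shifts in the results below was not tested. In bulk samples, fewer cells of a type and less RNA per cell cannot be told apart.

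Nlrp12, Mefv, Pycard and Casp4, 4 of the 10 genes, were higher in neutrophils from three-week LL2 mice than from naive mice. They were also higher than in neutrophils from one-week LL2 mice. The sensors Nlrp3, Nlrc4, Naip5 and Aim2, the caspase Casp1 and the gasdermin Gsdmd did not pass the test in any comparison. A gene was called changed when its Benjamini-Hochberg adjusted p-value in edgeR's quasi-likelihood test, over the 12259 genes with enough counts, was under 0.05. Of the inflammasome genes, 10 of 10 had enough counts. At 1 week 0 of the 10 were called against naive mice, where 7.99% of all tested genes were called in either direction. In that comparison 3 genes had an unadjusted p-value under 0.05, the smallest adjusted p-value was 0.0967 with edgeR, and DESeq2 called 0, with 2 at an unadjusted p-value under 0.05. At 3 weeks 4 of the 10 were called against naive mice, all higher, where 21.4% of tested genes were called in either direction and 12% were called higher. Between 3 weeks and 1 week 4 of the 10 were called, all higher at 3 weeks, where 22.5% of tested genes were called in either direction and 12.9% were called higher. Each pair of comparisons shares the libraries of 1 group, so their counts are not independent of each other. The median log2 fold change of the 10 genes was 0.11 at 1 week and 0.37 at 3 weeks against naive mice and 0.19 between 3 weeks and 1 week, beside medians over all tested genes of 0.01, 0.03 and -0.02.

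**Figure D1:**
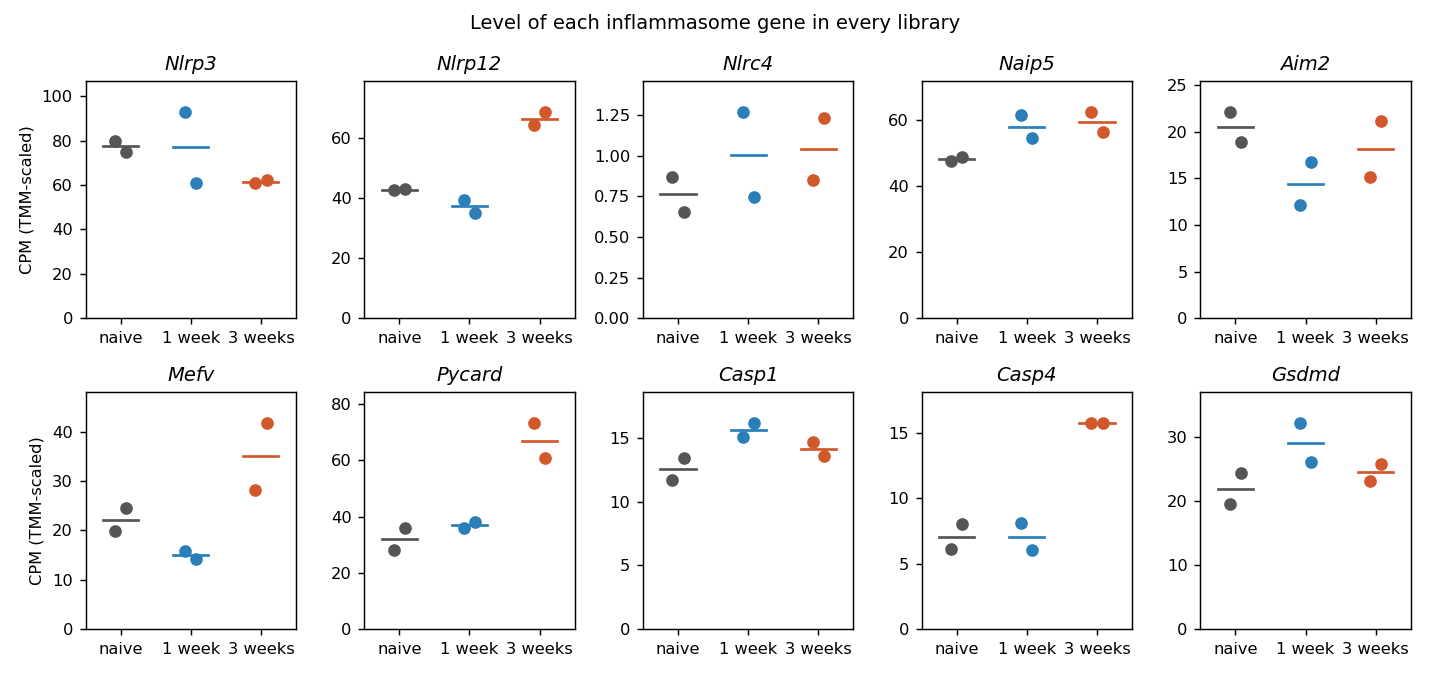
Level of each of the 10 genes in every library, in TMM-scaled CPM on the vertical axis, by group on the horizontal axis; points are single libraries and bars the mean of 2. For Nlrp12, Mefv, Pycard and Casp4 both three-week points lie above all 4 other points, which is not so for the other 6 genes. The share of all tested genes with this pattern was not counted, so it only describes the points.

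Among the sensors, Nlrp12 is a NOD-like receptor known mainly as a brake on NF-κB signaling in myeloid cells. It measured 42.7 and 43.1 CPM in naive libraries, 39.6 and 35 CPM at 1 week and 64.4 and 68.8 CPM at 3 weeks. Both three-week libraries exceeded all others, and the one-week libraries lay below the naive ones. The log2 fold change at 3 weeks was 0.63 against naive mice (1.55-fold, standard error 0.124, adjusted p = 0.00269 by edgeR) and 0.84 against one-week LL2 mice (1.78-fold, adjusted p = 3.64e-04 by edgeR). At 1 week it was -0.20 against naive mice, with a 95% interval from -0.47 to 0.07, and was not called.

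Mefv encodes pyrin, the sensor that responds when bacterial toxins switch off RhoA and that is mutated in familial Mediterranean fever. Its levels were 19.8 and 24.5 CPM in naive libraries, 15.8 and 14.2 CPM at 1 week and 28.2 and 41.8 CPM at 3 weeks. The groups did not overlap, with the one-week libraries lowest and the three-week libraries highest. The log2 fold change was 0.66 at 3 weeks against naive mice (1.58-fold, standard error 0.187, adjusted p = 0.0233 by edgeR) and 1.22 against one-week LL2 mice (2.33-fold, adjusted p = 5.38e-04 by edgeR). The difference from naive mice rested on single libraries, since without naive replicate 1 it was 0.48 (adjusted p = 0.219 by edgeR) and without three-week replicate 2 it was 0.35 (adjusted p = 0.262 by edgeR). With scaling by library size alone, which moves the median of all genes to -0.11, it was 0.52 (adjusted p = 0.0744 by edgeR). Without three-week replicate 1 it was 0.93 and was called. At 1 week the log2 fold change against naive mice was -0.56 (adjusted p = 0.0967 by edgeR), and it was called lower without three-week replicate 1 (adjusted p = 0.0387 by edgeR), without three-week replicate 2 (adjusted p = 0.0443 by edgeR), in a fit of only the naive and one-week libraries (adjusted p = 0.047 by edgeR) and without a filter on low counts (adjusted p = 0.0199 by edgeR).

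Nlrp3, the sensor of potassium efflux and membrane disturbance, measured 79.8 and 74.9 CPM in naive libraries, 92.9 and 60.9 CPM at 1 week and 60.9 and 62.2 CPM at 3 weeks. Both three-week libraries lay below the naive ones, while the one-week libraries ran from above the naive level down to the three-week level. The log2 fold change was -0.01 at 1 week and -0.33 at 3 weeks against naive mice, with 95% intervals from -0.36 to 0.35 and from -0.69 to 0.03, and -0.32 between 3 weeks and 1 week (adjusted p = 0.185 by edgeR). The last of these rested on the one-week libraries, since it was -0.62 without one-week replicate 2 (adjusted p = 0.0177 by edgeR) and -0.01 without one-week replicate 1 (adjusted p = 0.971 by edgeR). With scaling by library size alone, which moves the median of all genes to -0.22, it was -0.53 (adjusted p = 0.0453 by edgeR). Aim2, the sensor of double-stranded DNA in the cytosol, had 22.1 and 18.9 CPM in naive libraries, 12.1 and 16.7 CPM at 1 week and 15.1 and 21.1 CPM at 3 weeks. Its one-week libraries lay below the naive ones, and its three-week libraries overlapped both groups. The log2 fold change at 1 week was -0.51, with a 95% interval from -0.94 to -0.08 (adjusted p = 0.14 by edgeR), and at 3 weeks -0.18 against naive mice, with an interval from -0.61 to 0.25.

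Naip5 and Nlrc4 form one sensor, in which Naip5 binds flagellin and Nlrc4 polymerizes on it. Naip5 had 47.5 and 48.9 CPM in naive libraries, 61.4 and 54.6 CPM at 1 week and 62.4 and 56.3 CPM at 3 weeks. All 4 libraries from tumor-bearing mice lay above both naive libraries, but the log2 fold changes of 0.27 at 1 week (adjusted p = 0.217 by edgeR) and 0.30 at 3 weeks (adjusted p = 0.107 by edgeR) were not called. Naip5 has close copies in the mouse genome, and RSEM may have divided reads between them, so its value is uncertain. Of these copies, Naip6 had 15.1 and 14.6 CPM in naive libraries, 8.74 and 10.7 CPM at 1 week and 11.9 and 11.6 CPM at 3 weeks and was called lower at 1 week (log2 fold change of -0.62, adjusted p = 0.0472 by edgeR), the opposite sign to Naip5. Naip2, with 54 and 58.6 CPM in naive libraries, was not called. Both were looked up after the values of Naip5 were seen. Nlrc4 had few reads, with 11 and 8 counts in naive libraries, 19 and 10 at 1 week and 11 and 16 at 3 weeks. No difference in Nlrc4 was detected, and the 95% interval of its log2 fold change at 3 weeks against naive mice ran from -0.83 to 1.72.

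Pycard, whose product ASC links most sensors to caspase-1, measured 28 and 35.9 CPM in naive libraries, 35.8 and 38.2 CPM at 1 week and 73.4 and 60.7 CPM at 3 weeks. Both three-week libraries stood above all others, and the one-week libraries overlapped the naive ones. The log2 fold change at 3 weeks was 1.07 against naive mice (2.1-fold, standard error 0.15, adjusted p = 2.72e-04 by edgeR) and 0.86 against one-week LL2 mice (1.81-fold, adjusted p = 0.00108 by edgeR). Casp1 itself, the caspase that ASC recruits, had 11.7 and 13.4 CPM in naive libraries, 15.1 and 16.2 CPM at 1 week and 14.7 and 13.6 CPM at 3 weeks. All 4 libraries from tumor-bearing mice lay above the naive ones, by a margin that was not called, with log2 fold changes of 0.31 at 1 week (95% interval from -0.04 to 0.67) and 0.17 at 3 weeks (from -0.18 to 0.53).

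Casp4 in the mouse encodes the caspase long known as caspase-11, which binds bacterial lipopolysaccharide in the cytosol and starts the non-canonical pathway. It measured 6.09 and 8.02 CPM in naive libraries, 8.08 and 6.04 CPM at 1 week and 15.8 and 15.8 CPM at 3 weeks. The naive and one-week libraries covered the same range, and both three-week libraries lay well above it. The log2 fold change at 3 weeks was 1.17 against naive mice (2.24-fold, standard error 0.208, adjusted p = 0.00148 by edgeR) and 1.16 against one-week LL2 mice (2.24-fold, adjusted p = 0.00132 by edgeR). Gsdmd, the pore former that both caspases cut, had 19.5 and 24.3 CPM in naive libraries, 32.2 and 26 CPM at 1 week and 23.1 and 25.8 CPM at 3 weeks. Its one-week libraries lay above all others, with a log2 fold change of 0.41 against naive mice, a 95% interval from 0.06 to 0.76 and an adjusted p-value of 0.14 by edgeR, while at 3 weeks it was 0.16, with an interval from -0.19 to 0.51.

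**Figure D2:**
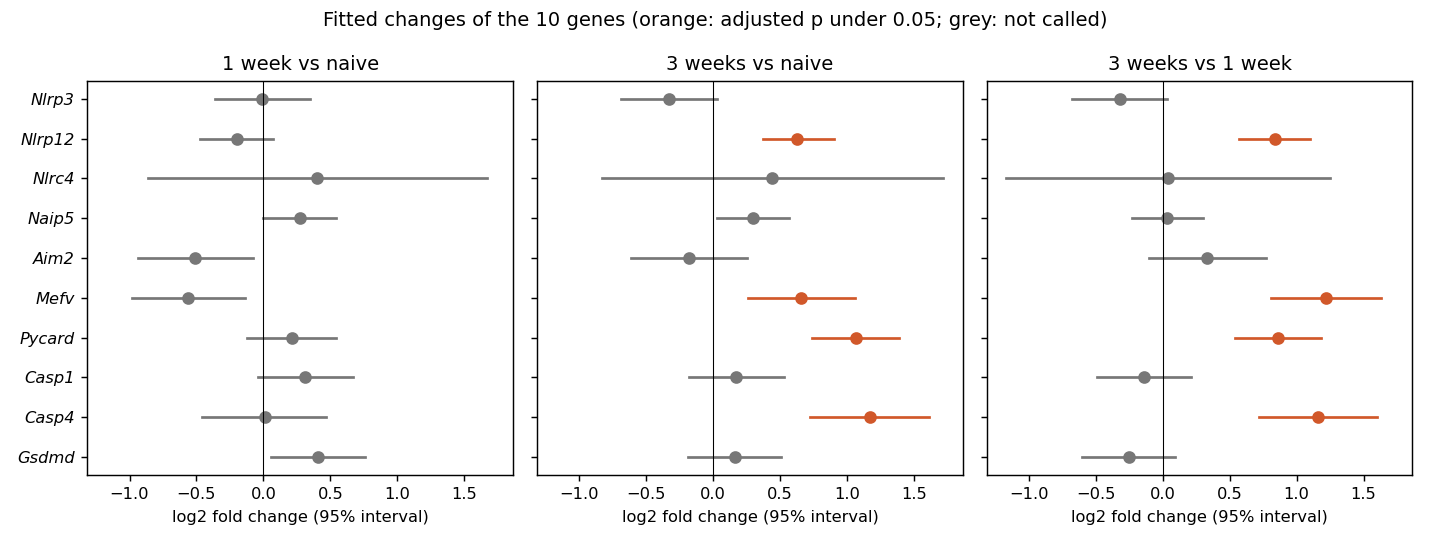
Log2 fold change of each gene (points) with its 95% interval (lines) in the 3 comparisons, orange where the adjusted p-value was under 0.05. The first panel holds no called gene, and the other panels hold the same 4. Their log2 fold changes ran from 0.63 to 1.17 against naive mice and from 0.84 to 1.22 against one-week LL2 mice.

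The calls of Nlrp12, Pycard and Casp4 held with DESeq2, with other scalings and filters and with each library left out in turn, where a group left with 1 library was assumed to vary like the other groups. Their log2 fold changes at 3 weeks against naive mice then ran from 0.49 to 0.69, from 0.87 to 1.27 and from 0.95 to 1.38.

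Casp1 and Casp4 are neighbors on chromosome 9 of the GRCm38 genome, on the same strand, with Casp1 at 5298517 to 5307265, Casp4 at 5308828 to 5336783 and 1562 bases between them. Casp4 was 2.24-fold higher at 3 weeks than in naive mice, while the fitted ratio of Casp1 was 1.13, with a 95% interval from 0.88 to 1.45. Nlrp12 (3218784 to 3249740) and Pycard (127989708 to 127993867) both lie on the minus strand of chromosome 7, far apart, and Mefv lies on the minus strand of chromosome 16 at 3707218 to 3718097. Shown here are the 250 bases before the RefSeq start of the 4 genes that rose, and of Casp1 for its position beside Casp4. Each is written in the direction of the gene, with matches to 3 motifs in capitals: the NF-κB consensus, GAGGAA of PU.1 and TTNNGCAA of C/EBP, each searched on both strands, with matches that share bases counted as 1 stretch. The GENCODE start of Casp4 lies slightly before the RefSeq start used for its window.
Nlrp12 promoter, chr7:3249741-3249990, minus strand: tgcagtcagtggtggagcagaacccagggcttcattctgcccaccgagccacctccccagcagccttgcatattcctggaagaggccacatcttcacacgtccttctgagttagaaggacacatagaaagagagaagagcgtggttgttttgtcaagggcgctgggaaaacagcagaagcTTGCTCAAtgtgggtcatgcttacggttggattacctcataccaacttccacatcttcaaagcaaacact
Mefv promoter, chr16:3718125-3718374, minus strand: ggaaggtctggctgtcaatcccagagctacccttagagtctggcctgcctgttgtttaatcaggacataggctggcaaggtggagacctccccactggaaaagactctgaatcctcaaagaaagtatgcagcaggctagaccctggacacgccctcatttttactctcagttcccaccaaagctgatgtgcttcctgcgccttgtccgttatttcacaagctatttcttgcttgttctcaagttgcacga
Pycard promoter, chr7:127993868-127994117, minus strand: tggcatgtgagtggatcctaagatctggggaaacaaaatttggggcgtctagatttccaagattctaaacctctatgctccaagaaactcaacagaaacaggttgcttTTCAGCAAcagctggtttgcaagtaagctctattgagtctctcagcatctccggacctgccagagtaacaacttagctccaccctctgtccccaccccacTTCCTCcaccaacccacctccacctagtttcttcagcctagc
Casp1 promoter, chr9:5298267-5298516, plus strand: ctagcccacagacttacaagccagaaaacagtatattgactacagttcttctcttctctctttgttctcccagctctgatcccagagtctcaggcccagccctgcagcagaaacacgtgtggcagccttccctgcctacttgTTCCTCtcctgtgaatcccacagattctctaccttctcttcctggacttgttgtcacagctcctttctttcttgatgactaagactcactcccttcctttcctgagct
Casp4 promoter, chr9:5308599-5308848, plus strand: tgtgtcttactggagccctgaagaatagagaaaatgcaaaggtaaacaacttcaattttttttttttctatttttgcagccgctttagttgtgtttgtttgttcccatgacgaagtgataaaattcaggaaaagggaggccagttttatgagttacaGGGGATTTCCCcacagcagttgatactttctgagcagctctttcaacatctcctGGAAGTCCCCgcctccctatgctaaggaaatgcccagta

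The RefSeq table (GRCm38.p6) held promoters of 9 of the 10 genes, all but Gsdmd, in 11 windows. In the Casp4 window the NF-κB consensus matched in 2 stretches, beginning 93 and 39 bases before the start. Another RefSeq start of Casp4 gave a window with the same stretches, at 104 and 50 bases. The Casp1 window held a PU.1 match 108 bases before its start and no NF-κB match. The Pycard window held a C/EBP match beginning 142 bases and a PU.1 match beginning 42 bases before the start, and the Nlrp12 window a C/EBP match at 70 bases. The Mefv window held none of the 3 motifs. Of 32851 promoter windows of this length, 7.25% held the NF-κB consensus, 23.3% the PU.1 letters and 9.56% the C/EBP letters. Matches were also found before genes that were not called. Among them were NF-κB stretches at 186 bases for Nlrp3 and 218 bases for Naip5, and PU.1 letters at 140 and 113 bases for Aim2. Whether any match acts on its gene was not tested.

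Levels of different genes were compared as CPM per kilobase of exon. In naive neutrophils Nlrp3 stood first with 19.1 ± 0.861 (SD, n = 2) CPM per kb, above Naip5 with 9.26 ± 0.189, Gsdmd with 9.23 ± 1.42, Pycard with 8.41 ± 1.47 and Casp1 with 8.4 ± 0.81, 4 genes of which each overlapped the next in its libraries. Mefv followed with 6.81 ± 1.02, Aim2 with 5.85 ± 0.64 and Nlrp12 with 5.69 ± 0.0307 CPM per kb, again with neighbors overlapping. Casp4 with 1.9 ± 0.368 and Nlrc4 with 0.159 ± 0.0317 CPM per kb lay apart at the low end. At 3 weeks Pycard stood first with 17.6 ± 2.36 CPM per kb and did not overlap Nlrp3 with 15.2 ± 0.232. The next 5 genes, from Naip5 with 11.4 ± 0.835 through Mefv, Gsdmd and Casp1 to Nlrp12 with 8.82 ± 0.41, each overlapped its neighbor. At 1 week the order began with Nlrp3 at 19 ± 5.57, Gsdmd at 12.2 ± 1.83 and Naip5 at 11.1 ± 0.926 CPM per kb. The place of Casp4 and Gsdmd depended on the length used, since over the principal coding transcript, a length added after the data were seen, Casp4 had 4.92 ± 0.951 and Gsdmd 12.2 ± 1.88 CPM per kb in naive libraries, and Casp4 11 ± 0.0096 at 3 weeks.

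**Figure D3:**
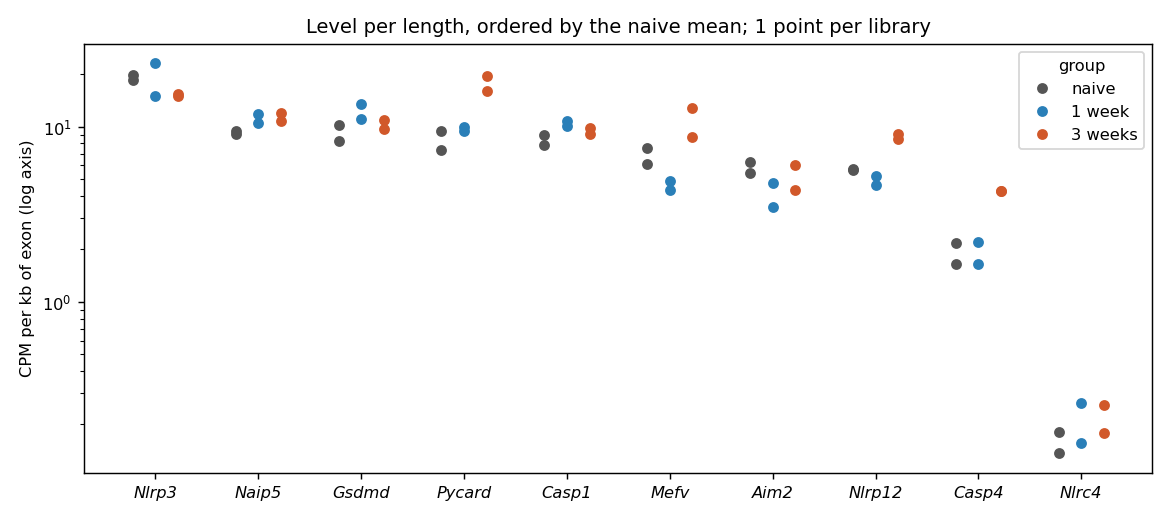
CPM per kilobase of exon on a log axis for each gene, ordered by the naive mean; each point is a library, colored by group. Nlrp3 is highest in naive and one-week libraries, Pycard is highest at 3 weeks with 17.6 CPM per kb, and Nlrc4 is lowest throughout, between 0.159 and 0.217 CPM per kb as group means.

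Pycard, Nlrp12 and Mefv reached the lowest adjusted p-values of the 10 genes when each gene's best comparison was taken. The genes whose log2 CPM followed theirs most closely over the 6 libraries are given as a description, since such a likeness mostly restates the difference between groups. For Pycard they were C1rl (Pearson's r = 0.997), Ctsc (0.996), the protease that activates neutrophil serine proteases, and Dync2li1 (0.995), and 271 tested genes reached 0.95. For Nlrp12 they were Zfand6 (0.999), Lats2 (0.997) and Vdac2 (0.997), with 333 genes at 0.95 or more, and for Mefv Chsy1 (0.996), Usp2 (0.996) and St3gal6 (0.991), with 80 genes.

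The rest of the pathway was read from 8 lists of 94 genes, of which 80 were tested. At 1 week 7 were called against naive mice, all of them lower. There 7.99% of all tested genes were called, with 461 of 12259 lower. At 3 weeks 13 were higher and 11 lower, where 21.4% of all tested genes were called, 1471 higher and 1155 lower. Between 3 weeks and 1 week 21 were higher and 8 lower, where 22.5% of all tested genes were called, 1586 higher and 1173 lower. The median log2 fold change over the 80 was -0.09 at 1 week and 0.13 at 3 weeks against naive mice and 0.13 between 3 weeks and 1 week.

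Among 12 tested genes of other sensors and NOD-like receptors, 1 rose and 6 fell at 3 weeks against naive mice. In that comparison 21.4% of all tested genes were called, with 1155 of 12259 lower. Nlrx1, a mitochondrial NOD-like receptor, rose from 48.4 and 59.4 CPM to 92.9 and 76.3 CPM (1.57-fold, adjusted p = 0.00656 by edgeR). Ifi204, a DNA-binding relative of Aim2, fell from 32.9 and 35.1 CPM to 9.23 and 13.5 CPM, by 1.58 on the log2 scale (adjusted p = 1.05e-04 by edgeR). Ifi203 of the same family fell by 1.46 (adjusted p = 0.00254 by edgeR), and Nod1, a receptor for bacterial peptidoglycan, fell by 0.77 (adjusted p = 0.00118 by edgeR). Relatives of Ifi203 and Ifi204 lie close together in the genome and are alike in sequence, so the division of reads between them is uncertain.

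Of 10 regulators of the sensors, 2 rose at 3 weeks against naive mice and none fell, a share near the 21.4% of all tested genes. Trim30a, reported to restrain Nlrp3 signaling, had 119 and 143 CPM in naive libraries, 110 and 96.4 CPM at 1 week and 222 and 207 CPM at 3 weeks, 1.63-fold above naive (adjusted p = 0.00142 by edgeR). Nek7, the kinase that binds Nlrp3 during assembly, rose 1.46-fold (adjusted p = 0.0303 by edgeR). In the list of lipopolysaccharide delivery and the non-canonical pathway, with 9 tested genes, none was called at 3 weeks against naive mice. The only gene called in any comparison was Irf2, a transcription factor needed for Gsdmd expression. Irf2 was called at 1 week against naive mice and between 3 weeks and 1 week, where 7.99% and 22.5% of all tested genes were called. It had 96.9 and 93.2 CPM in naive libraries, 60.1 and 58.8 CPM at 1 week and 74.4 and 77.4 CPM at 3 weeks. The one-week fall was 0.68 on the log2 scale (adjusted p = 0.00423 by edgeR), and at 3 weeks its log2 fold change was -0.32 (adjusted p = 0.0584 by edgeR).

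Of the 5 cytokine genes, 1 rose and 2 fell at 3 weeks against naive mice, beside 21.4% of all tested genes called. Il1b, a substrate of caspase-1, had 655 and 860 CPM in naive libraries, 580 and 612 CPM at 1 week and 428 and 921 CPM at 3 weeks, so the three-week libraries spanned the naive ones and the gene was not called in any comparison. Il18, the other substrate, fell from 27.1 and 27.7 CPM to 22.5 and 14.9 CPM, by 0.55 on the log2 scale (adjusted p = 0.0431 by edgeR). Il18bp, which encodes a secreted binder of interleukin-18, rose 1.49-fold (adjusted p = 0.0169 by edgeR). Il1rn, the receptor antagonist of interleukin-1, fell at both times, from 190 and 180 CPM through 112 and 104 CPM at 1 week to 42.5 and 44.4 CPM at 3 weeks, by 0.77 and 2.09 on the log2 scale against naive mice (adjusted p = 0.00182 and 2.72e-07 by edgeR).

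In the list of gasdermins, membrane rupture and repair, 11 genes were tested. Of these, 1 rose and 2 fell at 3 weeks against naive mice, beside 21.4% of all tested genes called. Ninj1, which breaks the membrane late in lytic death, fell from 25.5 and 26.9 CPM to 14.2 and 17.1 CPM, by 0.74 on the log2 scale (adjusted p = 0.00374 by edgeR). Chmp4b, an ESCRT subunit that takes part in sealing gasdermin pores, rose 1.32-fold (adjusted p = 0.0214 by edgeR). Vps4b, the ATPase that recycles ESCRT filaments, was not called against naive mice and was 1.41-fold higher at 3 weeks than at 1 week (adjusted p = 0.01 by edgeR). Rraga, a GTPase of the Ragulator-Rag complex needed for gasdermin D pores, was lower at both times, by 1.19 at 1 week and 0.60 at 3 weeks on the log2 scale (adjusted p = 7.16e-04 and 0.0115 by edgeR). Gsdme, which other caspases cut, had 77 and 78.8 CPM in naive libraries and 69.5 and 90.7 CPM at 3 weeks and was not called.

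Among 16 tested genes of other death caspases, necroptosis and inhibitors, 2 rose and 1 fell at 3 weeks against naive mice, a share near the 21.4% of all tested genes. Casp6, an executioner caspase, had 3.17 and 1.88 CPM in naive libraries, 1.34 and 2.91 CPM at 1 week and 22.2 and 15.8 CPM at 3 weeks. The change was 7.47-fold against naive mice, with a 95% interval from 4.6 to 12.1 (adjusted p = 4.77e-05 by edgeR). Serpinb1a, an inhibitor of neutrophil elastase and of inflammatory caspases, rose from 301 and 346 CPM to 486 and 445 CPM (1.44-fold, adjusted p = 0.00578 by edgeR). Ripk1, a kinase of death signaling, fell by 0.85 on the log2 scale at 1 week (adjusted p = 0.00456 by edgeR) and was 2.33-fold higher at 3 weeks than at 1 week (adjusted p = 7.28e-05 by edgeR). Birc3, an inhibitor of apoptosis that acts on it, was 1.6-fold higher at 3 weeks than at 1 week (adjusted p = 0.00387 by edgeR).

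All 3 neutrophil serine proteases rose at 3 weeks against naive mice, where 12% of all tested genes rose, among them Elane, whose product can cut gasdermin D. Elane had 2.69 and 1.64 CPM in naive libraries, 2.67 and 6.49 CPM at 1 week and 10.2 and 13.5 CPM at 3 weeks, 5.44-fold above naive (adjusted p = 5.58e-04 by edgeR). Prtn3 rose 9.37-fold (adjusted p = 3.52e-06 by edgeR) and Ctsg 7.49-fold (adjusted p = 3.58e-05 by edgeR). These genes are also markers of early neutrophil precursors, a list of 9 of which 5 were higher and 4 lower at 3 weeks than in naive mice. Mpo and Ms4a3 were also higher, while Cebpe, Chil3 and the genes of dividing cells Mki67 and Top2a were lower.

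Of 14 genes of priming by Toll-like receptors and NF-κB, 3 rose and none fell at 3 weeks against naive mice, a share near the 21.4% of all tested genes. Between 3 weeks and 1 week 6 were higher, where 12.9% of all tested genes were higher. Tlr4, the receptor for lipopolysaccharide outside the cell, rose from 15.9 and 16.9 CPM to 27.3 and 26.6 CPM (1.64-fold, adjusted p = 0.00342 by edgeR). Its co-receptor Cd14 had 24.7 and 25.5 CPM in naive libraries, 26.7 and 19.5 CPM at 1 week and 111 CPM in both three-week libraries, 4.41-fold above naive (adjusted p = 1.24e-06 by edgeR). The adaptor Myd88 rose 2.04-fold (adjusted p = 4.23e-05 by edgeR). Nfkbia, which encodes the NF-κB inhibitor IκBα, fell by 0.69 on the log2 scale at 1 week (adjusted p = 0.0262 by edgeR) and was 1.93-fold higher at 3 weeks than at 1 week (adjusted p = 0.0015 by edgeR). 

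**Figure D4:**
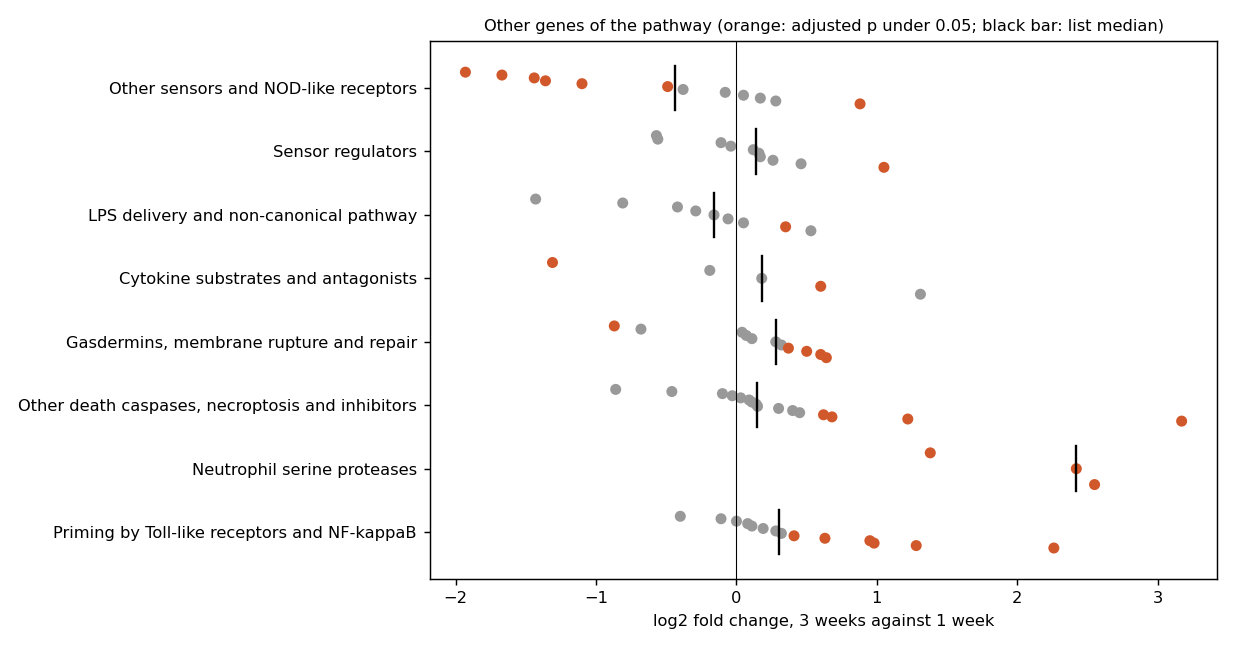
Log2 fold change at 3 weeks against 1 week of the 80 tested genes of the wider pathway lists, 1 point per gene, orange where the adjusted p-value was under 0.05, with a black bar at each list's median. Of the orange points, 21 lie to the right of 0 and 8 to the left, 6 of the 8 in the list of other sensors and NOD-like receptors.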

How the data were processed

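Total RNA of Ly6G-positive bone marrow cells was sequenced in 3 groups of mice, 2 libraries each. The values are whole-number expected counts per gene, which the authors deposited unscaled. RSEM (version 1.2.31 in the submitters' processing notes, which also name Bowtie2 and DESeq2) made them against mm10, and the paper's methods give another RSEM version. Totals were 11994158 to 14127919, which limits the precision of genes with few counts such as Nlrc4. Symbols, positions and exon lengths came from GENCODE M21 (GRCm38), which matched 37570 of 38887 identifiers.

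Genes were filtered with filterByExpr, counts were scaled by TMM (factors 0.9134 to 1.072), and groups were compared in edgeR 4.0.16 (R 4.3.3) by its quasi-likelihood F test, with all 6 libraries fitted together and the group as factor. P-values were adjusted over 12259 genes. DESeq2 1.42.0, fits of 2 groups, other scalings, filters and gene lengths, a replicate block and each library left out in turn were alternatives. The code was tested on simulated data. Replicates differed by more than counting noise (chi-square per degree of freedom of 10.7, 9.04 and 12.6 in naive, one-week and three-week groups).

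The 10 genes and the lists were chosen with earlier results of these data known. From each list up to 4 called genes with the smallest adjusted p-value are named, and Il1b, Il18, Gsdme, Ninj1, Elane and Serpinb1a whatever their values. The precursor markers beside the serine proteases are the whole list and were placed there after their values were seen. Of 94 listed genes, 92 matched an identifier. Likeness used log2 CPM with a prior count of 2.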

Additional observations from a re-analysis of the deposited data

Results flagged for a closer look

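The effect, here the log2 difference from naive mice, was not the same at 1 week and 3 weeks in 4 of the 10 inflammasome genes by edgeR's quasi-likelihood test. Both times share the naive libraries, so this is the contrast of three-week with one-week libraries already given above. In it 22.5% of all tested genes differed and 12.9% were higher at 3 weeks. With the same naive group for both times, time since injection and the tumor cannot be told apart. The log2 effect at 3 weeks exceeded that at 1 week by 0.84 for Nlrp12, 1.22 for Mefv, 0.86 for Pycard and 1.16 for Casp4. In Nlrp12 and Mefv the effects had opposite signs, -0.20 and 0.63 in Nlrp12 and -0.56 and 0.66 in Mefv, of which the one-week values were not called.

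Among the other named genes of the pathway, the effect at 3 weeks exceeded that at 1 week by 0.88 for Nlrx1, 1.05 for Trim30a, 0.35 for Irf2, 0.60 for Il18bp, 0.64 for Chmp4b, 0.50 for Vps4b and 0.60 for Rraga. The difference was 3.17 for Casp6, 1.22 for Ripk1, 0.68 for Birc3 and 0.62 for Serpinb1a. It was 1.38 for Elane, 2.55 for Prtn3 and 2.42 for Ctsg among the serine proteases, and 0.98 for Tlr4, 2.26 for Cd14, 1.28 for Myd88 and 0.95 for Nfkbia among the priming genes. It was below 0 for Nod1 (-0.49), Ifi203 (-1.44), Ifi204 (-1.36), Il1rn (-1.31) and Ninj1 (-0.87). The adjusted p-values of these differences by edgeR lay between 5.68e-07 for Cd14 and 0.0421 for Irf2. Most of these genes were named for low adjusted p-values in any comparison, this one included, so these p-values are a description and no test. Of all tested genes, 22.5% were called in this contrast. The named genes Il1b, Il18 and Nek7 were not called in it (adjusted p = 0.654, 0.481 and 0.259 by edgeR).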

How the results depend on the processing

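The 4 genes called at 3 weeks kept their direction in every alternative, and only Mefv against naive mice lost its call, as given with its values above. At 1 week the count of called inflammasome genes was 1, Mefv, in the fit of 2 groups and without a filter, and 0 to 1 with a library left out. Without a filter, 1537 genes and 11 of the wider lists were called at 1 week. Leaving out a library gave 147 to 1145 genes and 3 to 9 wider genes at 1 week, 1362 to 2392 genes at 3 weeks against naive mice and 1502 to 2725 between 3 weeks and 1 week. Log2 fold changes of uncalled genes changed sign. At 1 week Nlrp3 was 0.05 with library size alone and -0.35 to 0.26 with a library left out, Nlrc4 -0.04 to 0.72, and Casp4 -0.02 with DESeq2 and with its size factors and -0.23 to 0.21. At 3 weeks against naive mice Aim2 ran from -0.43 to 0.06 and Gsdmd from -0.02 to 0.33 with a library left out. Between 3 weeks and 1 week Nlrc4 was -0.16 with library size alone and -0.31 to 0.45, and Naip5 -0.17 and -0.08 to 0.12. The cause of these changes was not tested. Library size alone moved the median of all genes to -0.11 at 3 weeks against naive mice and -0.22 against 1 week, and the share of calls that were higher from 56% to 34.7% and from 57.5% to 28.6%; at 1 week it moved from 52.9% to 68.6%. Over the longest transcript the naive levels were 6.19 for Nlrp12, 7.22 for Aim2, 3.71 for Casp4 and 12.2 CPM per kb for Gsdmd, and over the principal transcript 4.92 for Casp4 and as before for the others. Same-numbered libraries did not deviate together (r of 0.0101, 0.0364 and 0.0379), so their numbers were not taken as pairs. With the replicate block, 0, 4 and 4 inflammasome genes and 959, 2559 and 2709 genes were called.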
